A study of Mus musculus with 4 samples.

Results

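The AP-1 transcription factors were described here through 10 genes chosen by symbol, out of 55335 genes in the deposited count tables: Fos, Fosb, Fosl1 and Fosl2 of the Fos family, Jun, Junb and Jund of the Jun family, and Atf3, Batf and Maff of related families. The series holds 4 RNA-seq libraries of mouse back skin cells with the label CD4+ T cells, from mice of 8 to 12 weeks treated with imiquimod cream (5%) for 5 days, a model of psoriasis. The 2 control libraries came from mice of genotype Mettl3fl/fl, whose Mettl3 alleles are floxed, and the 2 knockout libraries from Mettl3fl/fl;Cd4-Cre mice. These carry the same alleles and a Cre recombinase driven by Cd4 sequences, active in T cells as they develop. Mettl3 carries the catalytic site of the enzyme that writes N6-methyladenosine on RNA, and the comparison asks which transcripts differ when it is deleted in T cells. Every library was made after skin digestion with dispase for 60 min and collagenase for 2 h at 37 °C, per the labels' protocols. The daily cream dose was 15 or 62.5 mg, and neither the dose of each mouse nor the number of mice behind a library is given.

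AP-1 is a dimer of basic leucine zipper proteins. Fos proteins bind DNA only after pairing with a Jun protein, whereas Jun proteins can also pair with each other, and the pairs bind the sequence TGANTCA or the related TGACNTCA. Fos, Fosb, Jun, Junb and Atf3 are immediate early genes, whose transcription rises quickly and briefly after growth factors, cytokines, stress or T cell receptor signals. In T cells Batf pairs with Jun proteins and, together with IRF4, takes part in the differentiation of interleukin-17-producing cells, and in skin AP-1 proteins act in keratinocytes and in inflammatory myeloid cells.

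The libraries held between 3614418 and 4537006 counted fragments. All levels are TMM-scaled CPM. Values of single libraries are listed as control 1 and control 2, then knockout 1 and knockout 2. Errors of group levels are the SD of 2 libraries, and log2 fold changes are given ± their standard error, with adjusted p from the edgeR quasi-likelihood test. Control 2 stood apart: its median absolute log2 difference from control 1 over the tested genes was 1.86, against 0.79 between the knockouts and 0.63 and 0.67 between control 1 and each knockout. That library had fragments in 11424 genes, against 16273 to 20100 in the others. Of the 12434 tested genes, 4064 had no fragment in control 2, against 221 to 860 in the others. Keratinocyte markers summed to 26230 CPM in control 2 and to between 1232 and 2949 CPM in the others, while 17 T cell identity genes summed to 1185 and 340.2 CPM in the controls and to 358.9 and 176.8 CPM in the knockouts. Macrophage and monocyte markers (16 genes) summed to 21571 and 10846 CPM and to 33952 and 31186 CPM, above the T cell genes in every library. Sums of different lists compare only roughly, because they are not scaled for length and exons shared between entries are not counted. Neutrophil markers summed to 1791 and 572.8 CPM and to 4967 and 2743 CPM, fibroblast markers to 12464 and 2774 CPM and to 5662 and 5828 CPM, and mast cell and endothelial and mural markers to at most 521.5 CPM. Of the 17 T cell genes, 5 had no fragment in control 2 and 5 had none in knockout 2. Cd4, the defining marker, had 777 fragments in control 1 and 0 in control 2, against 420 and 9 in the knockouts. The label was thus not borne out by its marker in control 2, and only weakly in knockout 2 (2.13 CPM). Mettl3 was at 42.6 and 12.9 CPM in the controls and at 30.2 and 37.4 CPM in the knockouts, and 89.9% of its fragments lay in retained-intron exons, so these counts check nothing about the deletion. In such bulk samples, fewer cells of a type and less RNA per cell cannot be told apart.

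The 10 genes together made up 1.61% (1.60 to 1.62) and 0.778% (0.769 to 0.787) of all counted fragments in the controls, and 1.67% (1.66 to 1.69) and 1.50% (1.49 to 1.52) in the knockouts. The ranges in parentheses, here and for the shares and ratios that follow, are exact binomial 95% intervals and cover counting error only. Fos, Jun and Junb accounted for 91.8% of the fragments of the 10 genes. Control 1 thus lay between the knockouts, and control 2 lay below the other 3 libraries by far more than counting error.

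**Figure D1:**
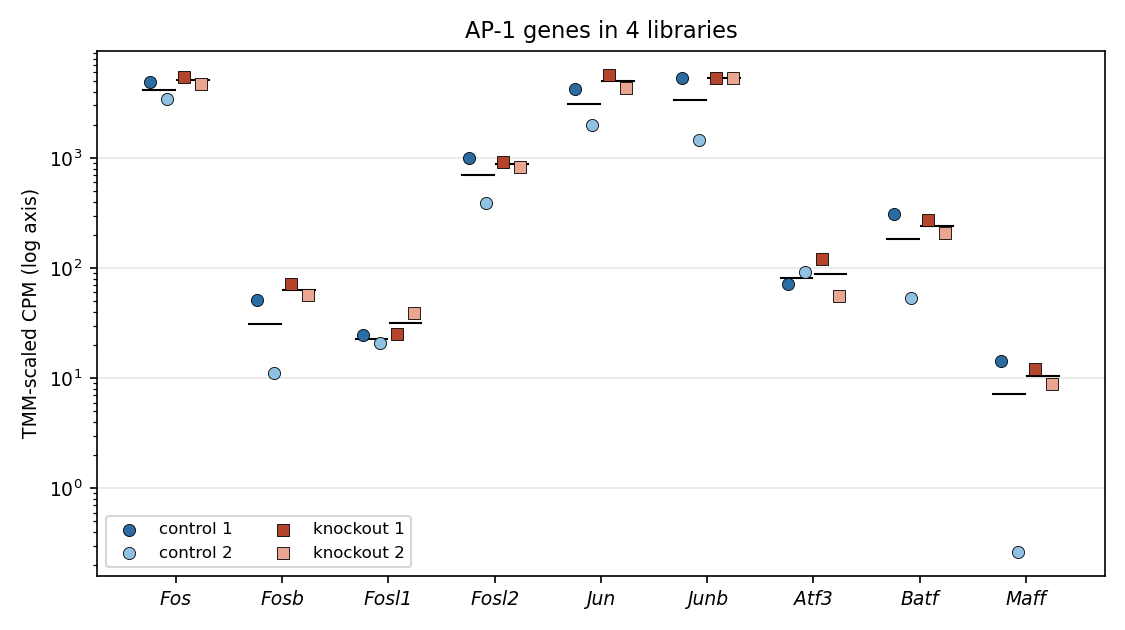
Level of 9 AP-1 genes in each library, in TMM-scaled CPM on a log axis. Circles are controls, squares are knockouts and short bars are group means (n = 2). For 8 of the 9 genes the lowest point is control 2, as with Junb at 1444 CPM against 5285 to 5381 in the others. Jund is left out, with at most 1 fragment in a library.

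Fos encodes the founding member of the family, a protein that must pair with Jun (ENSMUSG00000021250, GRCm38 chr12:85473890-85477273, plus strand). It was at 4885 and 3412 CPM in the controls and at 5493 and 4686 CPM in the knockouts. Control 1 lay between the knockouts and the groups overlapped. Group levels were 4148 ± 1042 CPM in controls and 5089 ± 571 in knockouts, a log2 fold change of 0.29 ± 0.47 (adjusted p = 0.9997, edgeR). Of its fragments, between 86.2% and 89.5% per library lay in the last exon of the protein-coding transcript Fos-201. This exon holds 639 coding bases and the 3′ UTR. The first exon of Fos-201 held between 10.5% and 13.6%.

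Jun encodes c-Jun, a partner of all Fos proteins (ENSMUSG00000052684, chr4:95049034-95052222, minus strand). This gene of a single exon was at 4244 and 2001 CPM in the controls and at 5724 and 4313 CPM in the knockouts. Both knockouts lay above both controls, although knockout 2 exceeded control 1 only slightly. The group levels were 3123 ± 1586 and 5019 ± 998 CPM, with a log2 fold change of 0.68 ± 0.57 (adjusted p = 0.9997, edgeR). Without control 2 the log2 fold change was 0.23.

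Junb encodes a Jun protein that activates some promoters less strongly than c-Jun and is needed for interleukin-17-producing T cells in mice (ENSMUSG00000052837, chr8:84974484-84978718, minus strand). Its level was 5319 and 1444 CPM in the controls and 5381 and 5285 CPM in the knockouts. Control 1 and both knockouts were nearly level and only control 2 was low. The log2 fold change over all libraries was 0.66 ± 0.71 (adjusted p = 0.9997, edgeR), with 3381 ± 2740 CPM in controls and 5333 ± 68.0 in knockouts. It was -0.0039 without control 2 and 1.95 without control 1.

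Jund, the Jun gene with steady expression in most cells, could not be read from these tables (ENSMUSG00000071076, chr8:70698949-70700616, plus strand). It had 0 fragments in both controls and 1 in each knockout. As a limit on counted fragments only, a count of 0 allows up to 0.655 CPM in control 1 and 0.792 in control 2 (3 fragments per library). The gene is a single exon of 1668 bases, of which 791 lie in no other exon entry of the tables, and the rest overlaps the antisense gene Gm11175, which had 0 fragments in every library. Counting was without strand, and fragments that could not be given to 1 entry were not counted. Whether this overlap accounts for so few fragments on the 791 free bases was not tested. The value is not taken as a measure of the gene's level, and the 9 other genes carry the results that follow.

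The sequences just before the transcription starts of the most counted genes and of Atf3, the gene that did not share the low level in control 2, are shown because AP-1 genes are themselves targets of bZIP factors. They are RefSeq sequences of GRCm38.p6, bases -120 to -1 from the start, on the coding strand. Capitals mark TGACG (on either strand), TGACNTCA and, in Fos, TATAAA. The windows are chr12:85473770-85473889 for Fos, chr4:95052223-95052342 for Jun, chr8:84978749-84978868 for Junb and chr1:191183334-191183453 for Atf3.
Fos: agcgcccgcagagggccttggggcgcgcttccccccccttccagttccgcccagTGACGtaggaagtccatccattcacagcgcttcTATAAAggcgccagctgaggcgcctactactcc
Jun: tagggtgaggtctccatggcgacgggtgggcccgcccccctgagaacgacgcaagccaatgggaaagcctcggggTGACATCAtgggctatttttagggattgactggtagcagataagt
Junb: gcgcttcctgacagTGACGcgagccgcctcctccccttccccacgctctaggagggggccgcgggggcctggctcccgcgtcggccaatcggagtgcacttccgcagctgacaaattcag
Atf3: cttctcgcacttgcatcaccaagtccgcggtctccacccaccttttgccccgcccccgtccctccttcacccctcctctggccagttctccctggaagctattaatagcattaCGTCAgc
Within the 250 bases before the start, TGACG was found on either strand in 6 of the 9 AP-1 genes that have a promoter in the RefSeq table (Fos, Fosb, Junb, Atf3, Batf and Maff) and in 17.8% of 32851 promoters of all genes. TGACNTCA, which overlaps TGACG where its middle base is G, was found in Jun and Maff and in 7.49% of all promoters. TGANTCA was found in none of the 9 genes and in 6.75% of all promoters, and TATAAA in Fos alone and in 12.4%. Maff has 3 windows in that table, which gives it more chances of a match. RefSeq starts can differ from those of the counted annotation. The counted first exon of Atf3-201 begins at chr1:191183340 on the minus strand, so the marked CGTCA of Atf3 lies inside that exon. The window of Jund, 1 of the 9 genes, ends at chr8:70697738, upstream of the counted gene start at 70698949. The motifs TGACNTCA, TGACG and TATAAA were chosen after these sequences were seen, and a match is a description of letters, not a binding site.

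Fosb, an activator closely related to Fos, was at 51.1 and 11.1 CPM in the controls and at 70.9 and 56.7 CPM in the knockouts (ENSMUSG00000003545, chr7:19302696-19310051, minus strand). Both knockouts lay above both controls. Its log2 fold change was 1.04 ± 1.11 (adjusted p = 0.9997, edgeR). All of its fragments fell in 1 of its 24 exon entries, the 3629-base exon of the retained-intron transcript Fosb-204, of which 2461 bases belong to no other entry. The counts thus do not include an exon given to a protein-coding Fosb transcript, and the gene could not be fitted without retained-intron exons.

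Fosl1, which encodes Fra-1, was at 24.7 and 20.9 CPM in the controls and at 25.0 and 38.8 CPM in the knockouts (ENSMUSG00000024912, chr19:5447547-5455946, plus strand). Both knockouts lay above both controls, but control 1 (113 fragments) and knockout 1 (100 fragments) were level after scaling. Its log2 fold change was 0.48 ± 1.10. It lay between 0.20 and 0.81 with 1 library left out.

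Fosl2, which encodes Fra-2, was the Fos family gene with the most fragments after Fos, at 995.6 and 392.2 CPM in the controls and at 925.0 and 823.4 CPM in the knockouts (ENSMUSG00000029135, chr5:32135801-32157842, plus strand). Control 1 lay above both knockouts and control 2 below them. Its log2 fold change was 0.33 ± 0.62, and it was -0.20 without control 2. The libraries also differed in where the fragments lay. The exon of the retained-intron transcript Fosl2-202 held 3.79% (3.26 to 4.39) and 35.9% (33.5 to 38.4) of the gene's fragments in the controls, and 7.66% (6.83 to 8.57) and 10.9% (9.89 to 12.0) in the knockouts. The last exon of the protein-coding Fosl2-201 held 952 fragments in control 2 and between 3043 and 4338 in the others, so the protein-coding part of Fosl2 was lower in control 2 than the summed count shows. With exons of protein-coding transcripts alone, the log2 fold change was 0.49.

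Atf3, a stress-induced factor that often represses transcription, was at 70.9 and 91.6 CPM in the controls and at 120.6 and 55.6 CPM in the knockouts (ENSMUSG00000026628, chr1:191170296-191218039, minus strand). The knockouts were the highest and the lowest of the 4 libraries. Its log2 fold change was 0.12 ± 0.80, and it was -0.50 without knockout 1 and 0.65 without knockout 2. Nearly all of its fragments came from the noncoding first exon of Atf3-201. A 170-base first exon of Atf3-203 held 9 fragments in knockout 1 and 0 in the other libraries.

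Batf was at 311.1 and 53.1 CPM in the controls and at 273.6 and 208.3 CPM in the knockouts (ENSMUSG00000034266, chr12:85686669-85709087, plus strand). Control 1 lay above both knockouts and control 2 below them. Its log2 fold change was 0.40 ± 0.93. It was -0.38 without control 2 and 2.25 without control 1. An exon of the retained-intron transcript Batf-202 held 50 fragments in control 1, 132 in knockout 1 and 0 in control 2 and knockout 2. Control 2 and knockout 2 had the fewest Cd4 fragments. They also had fragments in the fewest genes (11424 and 16273, against 19378 in control 1 and 20100 in knockout 1), and these traits cannot be told apart here. Batf was lowest in control 2, where Cd4 had 0 fragments and Cd3e, part of the T cell receptor complex, had 1. Trac, the T cell receptor constant region, was at 197.8 and 73.1 CPM in the controls and at 34.9 and 25.5 CPM in the knockouts. The sum of the 17 T cell genes was 340.2 CPM in control 2, 358.9 in knockout 1 and 176.8 in knockout 2. Of these 17 genes, 9 were lowest, or tied for lowest, in control 2, against 56.5% of all tested genes counted the same way. The ratio of Batf to Jun fragments was 0.0733 (0.0694 to 0.0773) and 0.0265 (0.0229 to 0.0305) in the controls, against 0.0478 (0.0449 to 0.0508) and 0.0483 (0.0451 to 0.0517) in the knockouts. The knockouts did not differ from each other in this ratio beyond counting error, and they lay between the controls. The sum of the T cell identity genes was highest in control 1, and the part of T cells in the Batf level was not tested.

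Maff encodes a small Maf protein, which lacks a transactivation domain (ENSMUSG00000042622, chr15:79346621-79359076, plus strand). It had 65 fragments in control 1 and only 1 in control 2, against 48 and 37 in the knockouts, or 14.2, 0.264, 12.0 and 8.75 CPM. Control 1 lay above both knockouts. Its log2 fold change was 0.52 ± 2.06. Its fragments lay in first exons of 4 protein-coding transcripts. The first exon of Maff-201 held 31 of 65 fragments in control 1, 43 of 48 in knockout 1 and 30 of 37 in knockout 2, and that of Maff-204 held 23, 4 and 0. Control 2, with 1 fragment, gives no such split.

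No AP-1 gene passed the threshold between genotypes. Over the 12434 genes tested, 9 of the 10 AP-1 genes among them, the edgeR quasi-likelihood test called 0 genes (0% of those tested), limma-voom also called 0, DESeq2 called 17 (0.137%) and edgeR without a low-count filter 27 of 24651 (0.11%), none of them an AP-1 gene. At an unadjusted p under 0.05 edgeR had 187 genes (1.5%), and the lowest unadjusted p of an AP-1 gene was 0.278, for Jun. All 9 tested AP-1 genes had a positive log2 fold change, between 0.12 and 1.04 with a median of 0.48, while 56.9% of all tested genes were positive with a median of 0.20. The standard errors, from 0.47 to 2.06, exceeded the log2 fold change for every gene but Jun. Jund did not pass the filter on low counts, so these counts are not over all 10 genes.

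**Figure D2:**
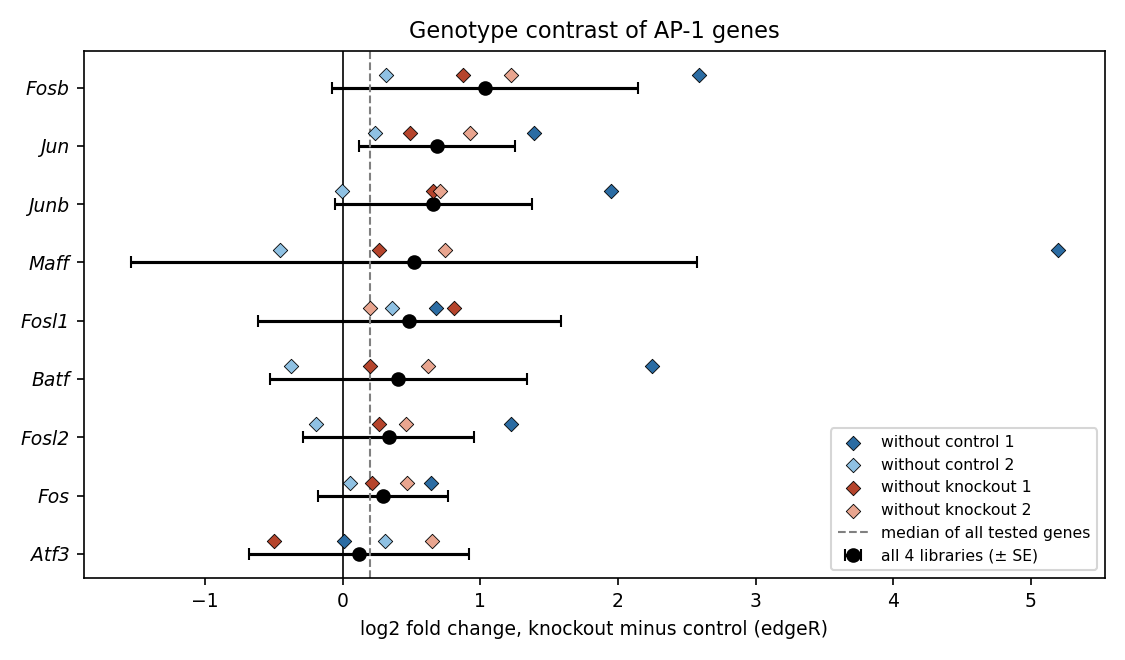
Log2 fold change of 9 AP-1 genes, knockout minus control. Black points are the fit to 4 libraries with standard errors, diamonds are fits with 1 library left out, and the dashed line is the median of all tested genes at 0.20. The fits without control 1 reach 5.20 for Maff and 1.95 for Junb, and those without control 2 lie between -0.46 and 0.36.

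Both knockouts lay above both controls for Fosb, Fosl1 and Jun, 3 of the 9 genes, against 19.5% of all tested genes. Both lay below for 0 of the 9, against 11.2% of all tested genes. The lowest level was in control 2 for 8 of the 9 genes, against 51.6% of all tested genes. Compared with the knockouts, control 1 was above both for Batf, Fosl2 and Maff, between them for Fos, Junb and Atf3, and below both for Fosb, Fosl1 and Jun. Without control 2, 5 of the 9 genes were positive and 4 negative, with a median of 0.05, the same as the median of 0.05 over all genes in that fit, where 52.3% were positive. Without control 1, control 2 is left as the lone control, assumed to vary like the knockouts. All 9 were then positive with a median of 1.39, against 1.72 over all genes, of which 66.4% were positive. For Junb the log2 fold change in that fit was 1.95. Leaving out control 2 turned the sign of Batf, Fosl2, Junb and Maff, and leaving out knockout 1 turned that of Atf3.

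Levels were compared between genes per kilobase of exon bases that lie in a single exon entry, which is rough because the counted part of each gene differs. On this scale Fos was highest with a mean of 3092 CPM per kb over the 4 libraries, followed by Junb at 2048, Jun at 1377, Atf3 at 210.6, Batf at 159.6, Fosl2 at 102.6, Fosl1 at 64.6, Fosb at 19.2 and Maff at 10.1. The ranges of neighbours did not overlap between Jun and Atf3 or between Fosl1 and Fosb. Fos exceeded Junb, and Junb exceeded Jun, in 4 of 4 libraries, though in control 2 Junb and Jun were almost equal at 678.4 and 676.8 CPM per kb. Atf3 exceeded Batf in 2 of 4 libraries, so their order is not resolved. Among 45406 genes with at least 200 such bases, Fos ranked 9 and 30 in the controls, against 8 and 16 in the knockouts, and Junb 15 and 112, then 19 and 22.

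**Figure D3:**
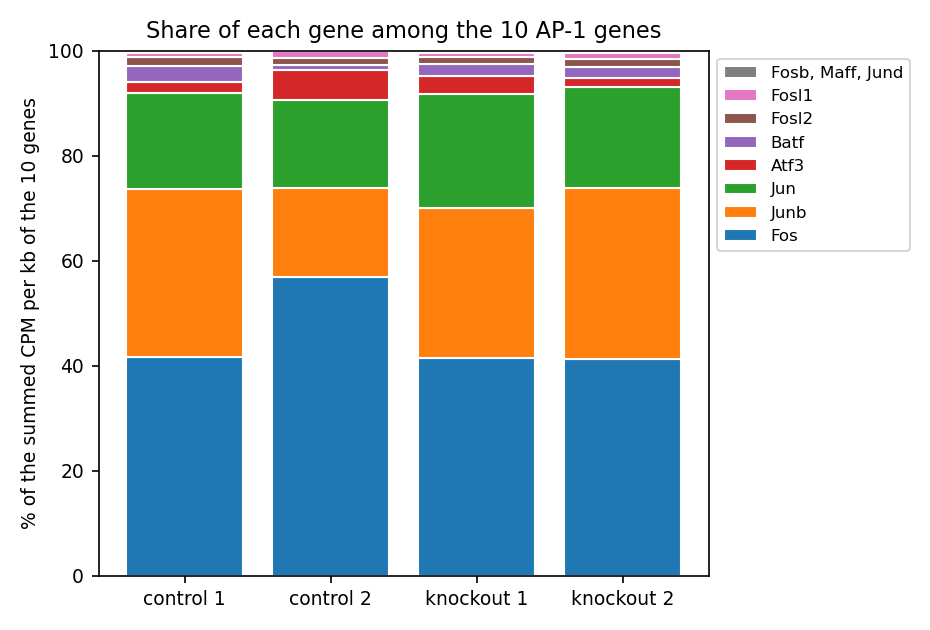
Share of each gene in the summed CPM per kb of the 10 AP-1 genes, for each library. Fos makes up 41.7% in control 1, 41.4% in knockout 1 and 41.2% in knockout 2 but 56.9% in control 2, where Junb makes up 16.9% against 28.5% to 32.7%.

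The share of Fos among the subunits was nearly the same in control 1 and the knockouts and higher in control 2. Of the summed CPM per kb, Fos made up 41.7% and 56.9% in the controls, against 41.4% and 41.2% in the knockouts. Junb made up 31.9% and 16.9%, then 28.5% and 32.7%, and Jun 18.3% and 16.9%, then 21.8% and 19.2%. The ratio of Fos to Junb fragments, which needs no scaling between libraries, was 0.918 (0.902 to 0.935) and 2.36 (2.29 to 2.44) in the controls, against 1.02 (1.00 to 1.04) and 0.887 (0.870 to 0.904) in the knockouts. Knockout 2 lay slightly below control 1 and knockout 1 above it, so the ratio did not separate the genotypes. The ratio of Junb to Jun was 1.25 and 0.721 in the controls, against 0.940 and 1.23 in the knockouts, where the controls enclosed the knockouts. The ratio of Atf3 to Jun was 0.0458 in control 2 (0.0410 to 0.0510), above the 0.0129 to 0.0211 of the other libraries.

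The genes whose profile over the 4 libraries was most like that of Fos, by root mean square distance of centred log2(CPM + 1) among 3422 other genes with a mean of at least 50 CPM, were Tvp23b, a Golgi membrane protein (0.021), Clic1, an intracellular chloride channel protein (0.024), and Actb, the cytoskeletal actin (0.038). Actb was at 2292 and 1601 CPM in the controls and at 2457 and 2253 CPM in the knockouts. The AP-1 gene closest to Fos was Fosl2 at a distance of 0.30, which is rank 453 among the genes searched.

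Other genes of the pathway were read from 4 lists. Of 26 other AP-1 and related bZIP factors, 19 were tested, 13 had a positive and 6 a negative log2 fold change with a median of 0.59, beside 56.9% positive among all tested genes, and 0 passed the threshold. The list's median was 0.15 without control 2 and 1.39 without control 1. Nfe2l2, the regulator of antioxidant genes, was at 999.99 and 575.7 CPM in the controls and at 2098 and 1181 CPM in the knockouts. Both of its knockouts lay above both of its controls, but Nfe2l2 was named in part for its low p. The same held for 3 of the 19 tested genes of the list, Nfe2l2 included, against 19.5% of all tested genes. Kinases and serum response factors upstream of AP-1 had 21 of 30 genes tested, 15 positive and 6 negative with a median of 0.58, and 0 passed. Their median turned to -0.16 without control 2 and was 1.68 without control 1. Map2k1, a kinase of the ERK pathway, was at 185.3, 228.3, 407.1 and 253.0 CPM, and Map3k1, which acts in the JNK pathway, at 289.4, 125.4, 370.9 and 123.6 CPM, where the groups overlapped. Rps6ka1, a kinase activated by ERK and named for its low p, was at 9.17, 34.6, 4.74 and 1.18 CPM, with both knockouts below both controls. These levels rest on 42, 131, 19 and 5 fragments. Of the 21 tested genes, 3 had both knockouts above both controls and 3 both below, against 19.5% and 11.2% of all tested genes.

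**Figure D4:**
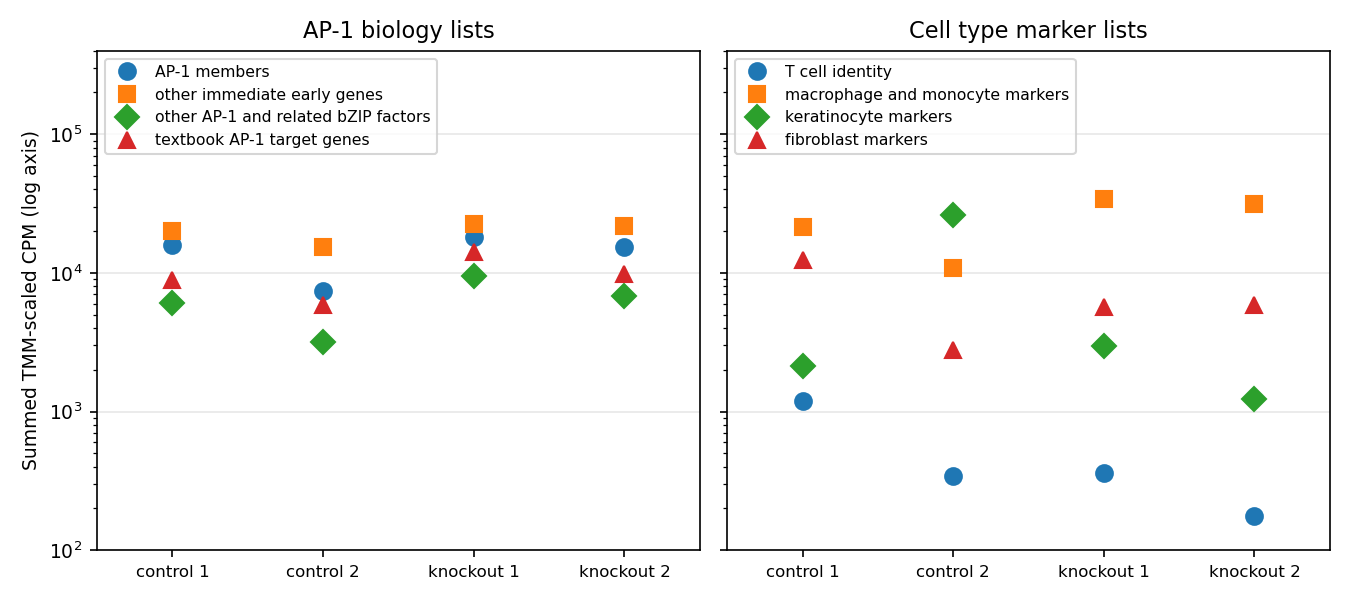
Summed TMM-scaled CPM of each list in each library on log axes, with AP-1 biology lists on the left and cell type markers on the right. The 10 AP-1 genes sum to 7426 CPM in control 2 and to between 15476 and 18026 in the others, and keratinocyte markers sum to 26230 CPM in control 2.

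Other immediate early genes had 19 of 21 genes tested, 14 positive and 5 negative with a median of 0.21 on the log2 scale, close to the 0.20 of all genes, and 0 passed the threshold. It was 0.12 without control 2 and 0.95 without control 1. Their sum was 20062 and 15404 CPM in the controls and 22385 and 21888 CPM in the knockouts, a smaller drop in control 2 than that of the AP-1 genes, which summed to 15916, 7426, 18026 and 15476 CPM. Their most abundant members differed in this. Ier3, a survival factor, was at 3051 and 2939 CPM in controls and 5168 and 4588 in knockouts, whereas Btg2, an antiproliferative gene, was highest in control 2 at 3362 CPM against 2727 to 2994 in the others. Socs3, an inhibitor of cytokine receptor signalling, was at 2389, 275.3, 4233 and 3484 CPM, with a log2 fold change of 1.53 ± 1.01.

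Textbook AP-1 target genes had 23 of 29 genes tested, 15 positive and 8 negative with a median of 0.43 on the log2 scale, and 0 passed the threshold, while 8 had both knockouts above both controls and 1 both below, against 19.5% and 11.2% of all tested genes. The median was 0.42 without control 2 and 1.13 without control 1. Il1b, the inflammatory cytokine, was at 1549 and 993.3 CPM in the controls and at 3812 and 2527 CPM in the knockouts (log2 fold change 1.32 ± 0.53). Hmox1, which breaks down haem, was at 1531, 1133, 2182 and 2422 CPM. Cxcl2, a chemokine for neutrophils, was at 143.0, 72.6, 542.4 and 283.4 CPM, with an unadjusted p of 0.036 and 99.98% of its counts on a retained-intron exon. These 3 genes are also made by myeloid cells, whose markers (15 of 15 tested macrophage and monocyte markers positive, median 1.47) moved the same way. The part of myeloid cells in these differences was not tested.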

How the data were processed

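The deposited tables hold raw fragment counts per exon entry. Per the file headers, the authors used featureCounts 2.0.1 on pairs with both ends mapped, without strand, on GRCm38 alignments and GENCODE M23. Per the submitters' processing notes, Trim Galore 0.6.7 and STAR 2.7.9a were used. No setting for duplicates is stated. Entries with coordinates shared by another entry held 0 fragments, so a gene's count comes from part of its exons, and 8.30% of fragments lay in exons of retained-intron transcripts alone (GENCODE M21, which holds 99.7% of the entries). A difference in such counts can come from transcript use.

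Entries were summed per gene, and 55154 identifiers had a symbol. Knockout and control were compared with edgeR 4.0.16 (R 4.3.3): filterByExpr at a minimum count of 10, TMM, the quasi-likelihood test, two-sided, no covariates, Benjamini-Hochberg adjustment over 12434 genes at 0.05. Standard errors are the absolute log2 fold change over the square root of F. DESeq2 1.42.0, limma-voom (limma 3.58.1), other scalings, no filter, 1 library left out and narrower sets of exons were alternatives. The fits were tested on simulated counts with large changes and a small, fixed spread. That run does not show what they could detect at the spread of these libraries. Genes named are the 10 AP-1 genes, Mettl3, Cd4 and Cd3e, the 2 most abundant and the 2 lowest-p genes at 5 CPM or more of each pathway list, and the 3 genes nearest to Fos. A gene that this rule takes is not reported here. Single marker genes are given only where a result turns on them, and marker lists otherwise by their sums. The members and lists were chosen with earlier results of these data known. Libraries were numbered only to name them. The labels do not say whether they came from separate mice, so p-values cover only their spread, which may be technical. Both pairs within a group differed by more than sampling noise (chi-square over its degrees of freedom, 163.3 for controls and 59.7 for knockouts).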

Additional observations from a re-analysis of the deposited data

How the results depend on the processing

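The number of genes past the threshold, 0 in the edgeR fit, was 17 with DESeq2 and 27 without a low-count filter, and lay between 0 and 4 with 1 library left out. It was 0 with DESeq2 size factors, upper-quartile factors, limma-voom, without retained-intron exons and with protein-coding exons alone. No AP-1 gene passed in any of these. The cause of the added calls was not tested. With all 4 libraries, each tested AP-1 gene kept a positive log2 fold change under every scaling, tool, filter and set of exons in which it could be fitted. Over the fits that leave out 1 library, the values ranged between -0.50 and 0.65 for Atf3, -0.38 and 2.25 for Batf, -0.20 and 1.22 for Fosl2, -0.0039 and 1.95 for Junb and -0.46 and 5.20 for Maff, the lowest value coming without knockout 1 for Atf3 and without control 2 for the others. Fos (0.05 to 0.64), Fosb (0.31 to 2.59), Fosl1 (0.20 to 0.81) and Jun (0.23 to 1.39) stayed positive. Fosb could not be fitted without retained-intron exons or with protein-coding exons alone. No paired analysis was possible because the labels number no replicates. Few fragments limit the precision of Maff, with 1 in control 2 and at most 65 in any library.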
